A study of Homo sapiens with 6 samples.

Results

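Antisense RNAs are transcripts read from the DNA strand opposite to another gene, and 154 of them were expressed in sorted A375 cells at a mean of at least 100 raw counts over the 6 libraries. They were chosen by these counts and by biotype, as the rows of the deposited table marked antisense whose mean reaches that level, out of 5443 antisense rows and 57914 rows in all. A375 is an established human melanoma line. The cells were stained with Aldefluor, a dye that fluoresces where aldehyde dehydrogenases (ALDH) convert it, and sorted by fluorescence into the brightest 5% (ALDH_High, 3 libraries) and the dimmest 5% (ALDH_Low, 3 libraries). Both groups came from the same line, grown in high-glucose DMEM with fetal calf serum and L-glutamine, and neither carried another genotype or agent. Stranded libraries of polyadenylated RNA were made from total RNA of the sorted cells, and the study compared the states with high and low ALDH activity. Nothing in the labels says that the libraries came from separate cultures, so the p-values measure the spread between these libraries, which may be technical.

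Antisense transcripts come in several arrangements. Some start back to back with a coding gene from a shared promoter, some overlap its start or its end, and some lie within it or host small nucleolar RNAs or microRNAs in their introns. A few are known to act on their neighbour, through transcription across it or through pairing with its RNA, while many are short-lived and are degraded in the nucleus. A stranded library is what allows such a transcript to be told from its partner. Whether the deposited counts were made with the strand setting is not given in the sources used here, and reads from overlapping exons therefore remain uncertain for the pairs described that share exons. VIM-AS1 shares 656 bp of exon with VIM, the gene of vimentin, and its counts were between 0.0817% and 0.257% of those of VIM in the 6 libraries. AC006064.4 shares 422 bp with GAPDH, a glycolytic enzyme gene, and had between 0.0195% and 0.18% of its counts.

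For 98 of the 154 antisense RNAs, RefSeq (GRCh38.p14) gives a promoter window of 300 bases, 250 before the start and 50 after it. Their 115 windows had a median GC content of 65% and a median of 26 CpG, against 58.67% and 14 over all 34943 windows in the table. The 34943 were not limited to genes expressed in these cells, and no windows of other genes at like expression were compared. Windows are printed here for the antisense RNAs with the 2 largest rises and the largest fall, and for ARHGAP5-AS1, which rose together with the sense gene in its name. Capitals mark the CCAAT box (CCAAT or ATTGG), the GC box (GGGCGG or CCGCCC) and ACAAAG (or CTTTGT), the core of the SOX recognition motif, searched on both strands; in the windows printed no match overlaps another. The windows lie at chr5:57394857-57395156 on the plus strand for RMEL3, chr19:35106255-35106554 on the minus strand for HPN-AS1, chr11:83285870-83286169 on the plus strand for CCDC90B-AS1 and chr14:32076650-32076949 on the minus strand for ARHGAP5-AS1, and each is written 5′ to 3′ on its own strand.
RMEL3: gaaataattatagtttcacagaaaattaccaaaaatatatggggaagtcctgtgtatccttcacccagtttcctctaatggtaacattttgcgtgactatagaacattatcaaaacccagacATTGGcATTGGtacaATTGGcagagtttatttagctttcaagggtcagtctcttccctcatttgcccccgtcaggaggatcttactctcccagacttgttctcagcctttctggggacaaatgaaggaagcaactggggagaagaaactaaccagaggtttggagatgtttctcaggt
HPN-AS1: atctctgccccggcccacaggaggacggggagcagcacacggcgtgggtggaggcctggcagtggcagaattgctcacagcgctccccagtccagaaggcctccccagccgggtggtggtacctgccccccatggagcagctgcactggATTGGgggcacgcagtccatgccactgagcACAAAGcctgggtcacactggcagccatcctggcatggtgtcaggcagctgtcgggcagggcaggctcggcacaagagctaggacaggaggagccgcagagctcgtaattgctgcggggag
CCDC90B-AS1: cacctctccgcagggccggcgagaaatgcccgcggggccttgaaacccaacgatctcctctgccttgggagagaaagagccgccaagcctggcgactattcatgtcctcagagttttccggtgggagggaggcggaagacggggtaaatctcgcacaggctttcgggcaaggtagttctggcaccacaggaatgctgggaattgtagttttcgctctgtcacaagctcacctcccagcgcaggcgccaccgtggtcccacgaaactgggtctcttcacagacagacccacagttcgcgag
ARHGAP5-AS1: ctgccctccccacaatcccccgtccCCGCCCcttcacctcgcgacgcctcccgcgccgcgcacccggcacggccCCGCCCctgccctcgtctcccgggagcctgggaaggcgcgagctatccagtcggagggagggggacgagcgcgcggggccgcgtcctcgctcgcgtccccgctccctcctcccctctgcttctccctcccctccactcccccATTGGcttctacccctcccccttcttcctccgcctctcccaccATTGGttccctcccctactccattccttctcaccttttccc

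The RMEL3 window holds 3 CCAAT boxes within a few bases of each other and has a GC content of 41.67%. HPN-AS1 has 1 CCAAT box and 1 ACAAAG match, ARHGAP5-AS1 has 2 CCAAT and 2 GC boxes at a GC content of 71.67%, and the CCDC90B-AS1 window holds none of the motifs searched. The CCAAT box occurred in 34.8% of the 115 windows and in 34.6% of all windows. The GC box occurred in 59.1% and 44.9%, ACAAAG in 12.2% and 16.1%, and the TATA box (TATAAA, either strand) in 6.09% and 11.6%. These matches describe the letters of the windows and show no binding.

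All 154 antisense RNAs passed edgeR's filter on low counts and were tested. At an adjusted p below 0.05, 40 of them (26.0%) changed between the groups, where the background over all 17047 genes tested was 20.6%. More fell than rose: 27 were lower in ALDH_High and 13 higher, beside backgrounds of 9.83% lower and 10.8% higher over all genes. On the log2 scale (ALDH_High over ALDH_Low) the median of the 154 was -0.19, and that of all genes was -0.013. A negative value was seen for 70.8% of the antisense RNAs and for 51.4% of all genes. Without ALDH_High replicate 2 the count was 25, without ALDH_High replicate 3 it was 26, without ALDH_Low replicate 2 it was 26, and without ALDH_Low replicate 3 it was 24. Without ALDH_High replicate 1, 6 calls were lost and 8 gained. Over the fits that left out 1 library, the lower ones numbered 13 to 30 and the higher ones 7 to 12. The number of changed genes in all, 3513 with all libraries, moved in these fits too, over the range given at the end. In bulk samples such as these, a lower level in fewer cells and a lower level in every cell cannot be told apart.

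Long intergenic RNAs, which overlap no coding gene, were held to the same minimum of 100 counts and gave a similar share of calls and median. Their abundance was not matched further. A negative value was seen for 63.1% of them, beside 70.8% of the antisense RNAs. Of 176 lincRNAs with a mean of at least 100 counts that were tested, 45 changed (25.6%), 15 of them higher and 30 lower, with a median log2 fold change of -0.19, and the libraries of the groups did not overlap for 86 of them (48.9%). Protein-coding genes above that level differed: of 11209, 1339 were higher (11.9%) and 1002 lower (8.94%), with a median of 0.019. The antisense RNAs below 100 counts that could be tested numbered 700, and 14.3% of these changed, beside 20.6% over all genes tested. Of the 700, 14 were higher and 86 lower, with a median of -0.43. No test was made between these classes.

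**Figure D1:**
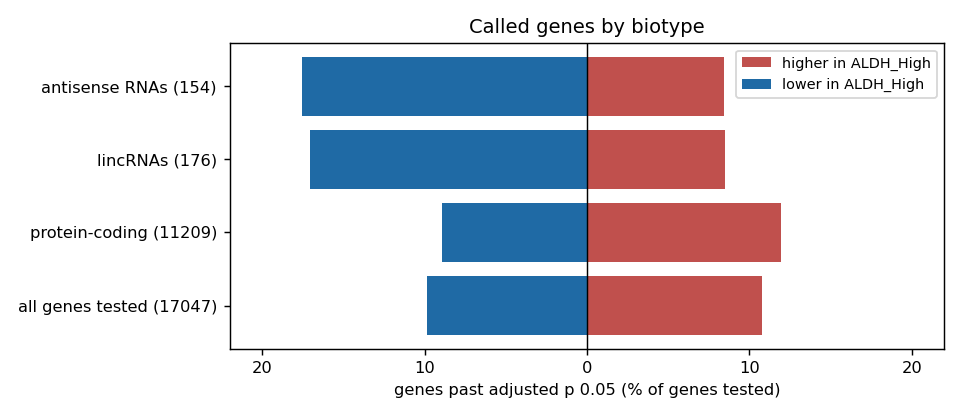
Share of genes past an adjusted p of 0.05 in edgeR's quasi-likelihood test (horizontal axis, % of genes tested; left lower in ALDH_High, right higher) for the 154 antisense RNAs, and for lincRNAs and protein-coding genes reaching a mean of 100 counts and all genes tested. In the antisense RNAs and the lincRNAs the lower share is the longer bar, and in protein-coding genes the higher share is.

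The choice of a mean over both groups let in 31 antisense RNAs whose mean was under 100 counts in one group. Of these 31, 12 changed (4 higher, 8 lower), and of the 123 with at least 100 counts in both groups 28 did (9 higher, 19 lower). Over all genes tested 20.6% changed. Among these 12, the 4 higher were RMEL3, HPN-AS1, HAGLR and ARHGAP5-AS1. The 8 lower were CCDC90B-AS1, COSMOC, GSEC, LINC01137, AC124798.1, EXOC3-AS1, GATA2-AS1 and ATP2C2-AS1. All 12 are described below, and each reached the count threshold only through the group where it was higher. The libraries of the groups did not overlap for 78 of the 154, beside 37.8% of all genes tested. Just inside the count threshold lay AC009779.2 (CD63-AS1) and AL691432.2, each with a mean of 100 counts, and just outside it PTOV1-AS2 with 99 and AC242426.2 with 98.7. Single values also went through an exact permutation test (two-sided). With 3 against 3 libraries its p cannot fall under 0.1, and every changed antisense RNA with values by library here had that p.

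Summed, the 154 made up 0.255% to 0.454% of each library's counts, and a single RNA made up a large part of that. AD000090.1, on chromosome 19 (chr19:35557928-35581960, plus strand, GENCODE 44 on GRCh38), overlaps the start of ATP4A, the gastric proton pump gene, which had no counts in any library. Its level was 1892, 1387 and 919 CPM (counts scaled by library size) in ALDH_High and 1310, 2757 and 1189 CPM in ALDH_Low, and its mean over libraries was 5989 TPM (transcript abundance corrected for length). The groups overlapped, and the value of ALDH_Low replicate 2 was the highest of the 6. The log2 fold change was -0.32 (SE 0.33, edgeR adjusted p = 0.551) and turned to 0.16 without that library. The other 153 antisense RNAs took 0.146, 0.158 and 0.162% of the counts in ALDH_High and 0.175, 0.176 and 0.183% in ALDH_Low. These shares did not overlap, with means of 0.155% ± 0.0079 and 0.178% ± 0.0041 (SD, n = 3 each).

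Among the next most abundant were host transcripts of small nucleolar RNAs, which guide the chemical modification of ribosomal RNA. ZFAS1, at a mean of 377 TPM, and SNHG7, at 128 TPM, did not pass the test, with log2 fold changes of -0.17 (edgeR adjusted p = 0.352) and -0.33 (edgeR adjusted p = 0.182). SNHG12 had 25.2, 48.5 and 51.1 CPM in ALDH_High and 79.1, 74.6 and 103 CPM in ALDH_Low. All of its ALDH_Low libraries lay above all ALDH_High libraries, among which replicate 1 was the lowest. It fell by 1.04 on the log2 scale (SE 0.24, edgeR adjusted p = 0.0123). Without ALDH_Low replicate 3 that p was 0.0637. SNHG21 and SNHG10 bear the same kind of name but were less abundant, at means of 16.0 and 10.5 TPM. SNHG21, named after its values were seen, fell by 0.96 (SE 0.27, edgeR adjusted p = 0.0293). Its call was lost without ALDH_High replicate 1 or 3 or ALDH_Low replicate 2 or 3 (edgeR adjusted p between 0.0517 and 0.115). SNHG10 had -0.24 (edgeR adjusted p = 0.566).

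FGD5-AS1, HCG18, AL365181.3 and AC020916.1, also abundant, did not pass the test with all 6 libraries. FGD5-AS1 had a log2 fold change of 0.16 (edgeR adjusted p = 0.386) and HCG18, from the major histocompatibility region, -0.18 (edgeR adjusted p = 0.337). AL365181.3, which lies within BCAN, the gene of the matrix proteoglycan brevican, had 71.9, 57.6 and 55.3 CPM in ALDH_High and 89.4, 86.2 and 72.5 CPM in ALDH_Low. These values did not overlap, by a narrow gap, and the log2 fold change of -0.43 (SE 0.14) had an edgeR adjusted p of 0.0525. AC020916.1, now MIR23AHG, the host of the miR-23a, miR-27a and miR-24 cluster, had 8.72, 18.5 and 25.5 CPM in ALDH_High and 18.3, 43.9 and 52.1 CPM in ALDH_Low. Replicate 1 was the lowest library of each group, the groups overlapped there, and the log2 fold change of -1.10 (SE 0.41) had an edgeR adjusted p of 0.0875. It passed without ALDH_High replicate 3 (edgeR adjusted p = 0.0496) or ALDH_Low replicate 1 (edgeR adjusted p = 0.0245). AL365181.3 passed without ALDH_High replicate 1 (edgeR adjusted p = 0.0124) or ALDH_Low replicate 3 (edgeR adjusted p = 0.0499).

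AC025470.2, which GENCODE 44 names RMEL3 (chr5:57395060-57534504, plus strand), had the largest rise. RMEL3 is known as a long non-coding RNA with expression largely restricted to melanoma. It had 19.3, 22.5 and 15.3 CPM in ALDH_High and 0.622, 0.836 and 1.80 CPM in ALDH_Low, from 489, 779 and 521 counts against 24, 25 and 50. Every ALDH_High library stood far above every ALDH_Low library. The difference was 17.9-fold (log2 fold change 4.16, SE 0.35, edgeR adjusted p = 3.47e-05). RMEL3 spans ACTBL2, an actin-like gene on the opposite strand, whose log2 fold change of 0.998 (SE 0.46, edgeR adjusted p = 0.162) did not pass at under 1 CPM in both groups.

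HPN-AS1 (chr19:35042902-35106307, minus strand) overlaps the end of HPN, which encodes the membrane serine protease hepsin. Its level was 8.80, 7.76 and 6.27 CPM in ALDH_High and 0.856, 0.602 and 0.935 CPM in ALDH_Low. Both groups were tight and lay far apart, and the difference was 9.48-fold (log2 fold change 3.24, SE 0.27, edgeR adjusted p = 3.18e-05). HPN itself had at most 3 counts in any library and was not tested.

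AL354719.2, SCAT8 in GENCODE 44 (chr6:63805797-63822699, plus strand), lies within EYS, a gene known from photoreceptors. It had 21.4, 13.7 and 14.7 CPM in ALDH_High and 4.12, 3.04 and 4.39 CPM in ALDH_Low, with no overlap. The rise was 4.30-fold (log2 fold change 2.10, SE 0.23, edgeR adjusted p = 0.000159). EYS had a log2 fold change of 1.02 (SE 0.36, edgeR adjusted p = 0.0722).

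HAGLR (chr2:176164051-176188958, minus strand) runs through the HOXD cluster, whose genes set position along the body axis. It had 9.66, 6.40 and 6.16 CPM in ALDH_High and 3.11, 2.51 and 2.48 CPM in ALDH_Low. Here too the groups did not overlap, although ALDH_High replicate 1 was well above the others. The rise was 2.73-fold (log2 fold change 1.45, SE 0.24, edgeR adjusted p = 0.00225). HOXD3, the coding gene on the opposite strand that it overlaps most, was too low to be tested. HOXB-AS1, of the HOXB cluster, had a log2 fold change of 0.68 (SE 0.22, edgeR adjusted p = 0.0528) and was named after its values were seen.

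The other antisense RNAs with the smallest p among those that rose were AC037459.3 (log2 fold change 1.43, SE 0.26), LINC02584 (1.22, SE 0.28), PRR7-AS1 (0.76, SE 0.18), FLJ46906 (0.72, SE 0.20), DLEU2 (0.62, SE 0.15) and ARHGAP5-AS1, described with its partner. AC037459.3 lies on chromosome 8 within CCAR2, a regulator of the deacetylase SIRT1, and CCAR2 did not pass (log2 fold change -0.11, edgeR adjusted p = 0.557). LINC02584 lies within ANO1, which encodes a calcium-activated chloride channel and rose itself (log2 fold change 1.81, SE 0.12, edgeR adjusted p = 1.05e-05). DLEU2 is the host transcript of miR-15a and miR-16-1 on chromosome 13. Its libraries had 16.4, 15.5 and 18.2 CPM in ALDH_High and 9.67, 11.5 and 11.6 CPM in ALDH_Low, with no overlap. The 310 genes tested on chromosome 13 had a median of 0.33 on the log2 scale, and how much of the DLEU2 difference moves with the chromosome was not tested. Without ALDH_High replicate 3 or ALDH_Low replicate 1 the edgeR adjusted p of DLEU2 rose to 0.0575 and 0.0565. LINC02584 lost its call without ALDH_Low replicate 2 (edgeR adjusted p = 0.0513), PRR7-AS1 without ALDH_Low replicate 1 or 2 (edgeR adjusted p = 0.0524 and 0.0561), and FLJ46906 without ALDH_High replicate 2 or 3 or ALDH_Low replicate 1 or 2 (edgeR adjusted p between 0.089 and 0.1).

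AP000446.1, now CCDC90B-AS1 (chr11:83286120-83423516, plus strand), had the largest fall. It had 0.789, 0.955 and 0.879 CPM in ALDH_High and 8.72, 9.0 and 10.5 CPM in ALDH_Low. The groups were tight and far apart, and the level in ALDH_High was 10.7-fold lower (log2 fold change -3.42, SE 0.22, edgeR adjusted p = 9.09e-06). The antisense RNA starts 270 bp inside CCDC90B, in GENCODE 44, and shares 271 bp of exon with it. In RefSeq its start lies 142 bp upstream of one CCDC90B start, so that both promoter windows share 241 bases of the sequence printed, and 247 bp inside from another. CCDC90B itself stood at 25.5 ± 3.36 CPM in the ALDH_High libraries and at 30.7 ± 2.92 CPM in the ALDH_Low ones (SD, n = 3 each), a log2 fold change of -0.27 (SE 0.14, edgeR adjusted p = 0.215).

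AC023043.1, or COSMOC (chr18:36179996-36187475, minus strand), had 2.64, 2.63 and 2.73 CPM in ALDH_High and 7.0, 8.87 and 10.7 CPM in ALDH_Low. Its ALDH_High libraries were almost equal and all lay below the ALDH_Low libraries, which spread more. It was 3.31-fold lower in ALDH_High (log2 fold change -1.73, SE 0.22, edgeR adjusted p = 0.000394). It overlaps the end of ELP2, a subunit of the tRNA-modifying Elongator complex, which also fell (log2 fold change -0.35, SE 0.11, edgeR adjusted p = 0.0467). The median log2 fold change of the 262 genes tested on chromosome 18 was -0.33, and its part in either fall was not tested.

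GSEC, which overlaps the end of the decapping scavenger gene DCPS, had 1.74, 1.68 and 1.76 CPM in ALDH_High and 5.11, 4.82 and 5.03 CPM in ALDH_Low. Its libraries were nearly equal within each group, and it was 2.89-fold lower in ALDH_High (log2 fold change -1.53, SE 0.22, edgeR adjusted p = 0.000799). DCPS had a log2 fold change of 0.23 (SE 0.12, edgeR adjusted p = 0.21).

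LINC01137, now ZC3H12A-DT, is transcribed divergently from ZC3H12A, the gene of an RNase that degrades inflammatory mRNAs, with the starts 148 bp apart. It had 2.37, 1.79 and 1.99 CPM in ALDH_High and 5.97, 4.95 and 4.92 CPM in ALDH_Low, with no overlap. The fall of 1.37 on the log2 scale (SE 0.23, edgeR adjusted p = 0.00214) stood beside a fall of ZC3H12A by 1.59 (SE 0.23, edgeR adjusted p = 0.000923). Both sides of this divergent pair were lower in ALDH_High.

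The remaining named falls were smaller. AC124798.1 fell by 1.15 on the log2 scale (SE 0.25), AC098864.1 (TENM3-AS1) by 1.10 (SE 0.19), USP2-AS1 by 1.06 (SE 0.21), AC068888.1 (TNS2-AS1) by 0.98 (SE 0.20), ARRDC1-AS1 by 0.90 (SE 0.16) and AGAP2-AS1 by 0.63 (SE 0.12). Their edgeR adjusted p lay between 0.0027 for AC098864.1 and 0.00902 for AC124798.1. AGAP2-AS1 was the most abundant of these, at a mean of 29.8 TPM, with 25.2, 24.3 and 22.02 CPM in ALDH_High and 34.0, 38.4 and 38.4 CPM in ALDH_Low. For none of these 6 did the libraries of the groups overlap.

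**Figure D2:**
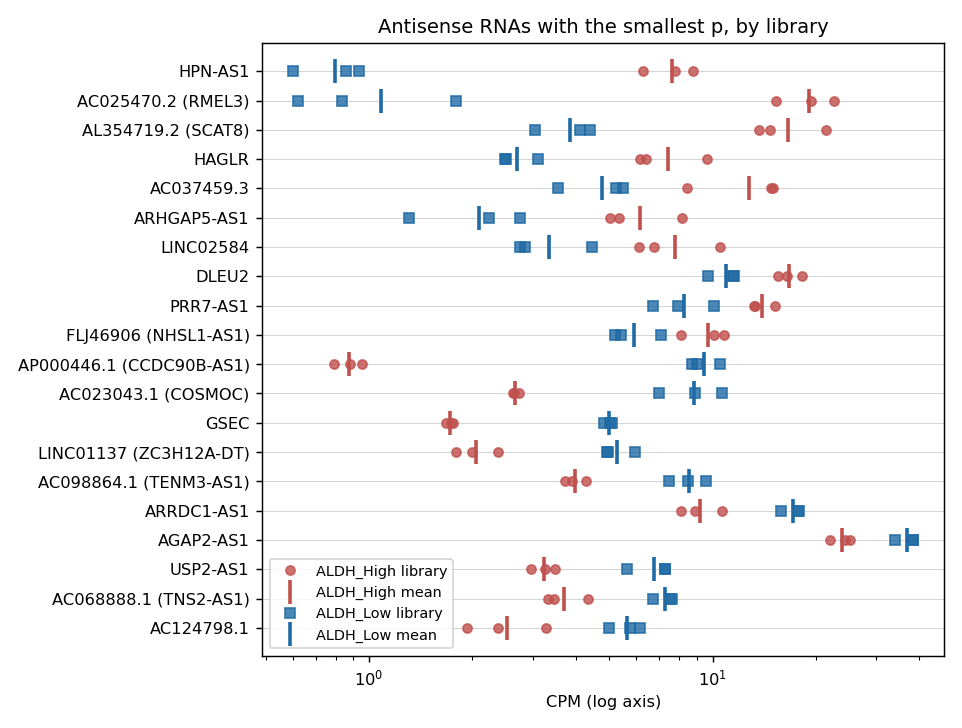
CPM of each library (horizontal log axis; circles ALDH_High, squares ALDH_Low, vertical ticks group means) for the 10 higher and 10 lower antisense RNAs with the smallest p. RMEL3, HPN-AS1 and CCDC90B-AS1 show the widest gaps, and in no line do circles and squares overlap.

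Most changes were modest in size. Of the 40 changed antisense RNAs, 16 differed at least by 1 in either direction on the log2 scale. A pair that did not pass the test reached that size, MIR23AHG and AC006064.4, whose ALDH_Low libraries ranged from 1.51 to 7.43 CPM (log2 fold change 1.32, SE 0.53, edgeR adjusted p = 0.113). Without ALDH_Low replicate 2, AC006064.4 passed at 2.08 (edgeR adjusted p = 0.0239). AC099329.1 had the widest error, with counts of 0, 259 and 0 in ALDH_High and 177, 244 and 62 in ALDH_Low. Its log2 fold change was -0.97 (SE 1.24, edgeR adjusted p = 0.645), and without ALDH_High replicate 2, which leaves that group at 0 counts, it passed as lower (edgeR adjusted p = 0.000985). AC006064.4 and AC099329.1 were singled out after their values were seen.

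**Figure D3:**
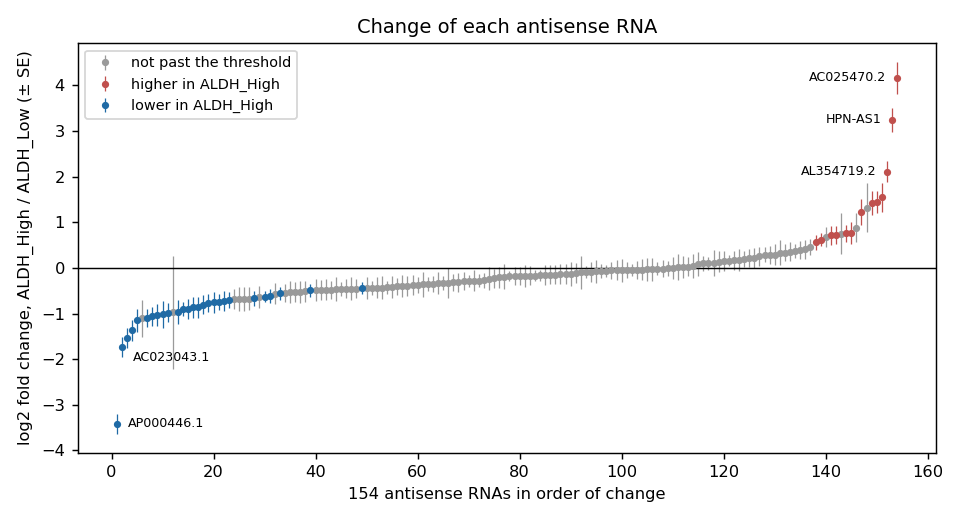
Log2 fold change (vertical axis, ALDH_High over ALDH_Low, bars ± SE) of the 154 antisense RNAs, ordered from the lowest to the highest (horizontal axis), with those past an adjusted p of 0.05 in colour. The values run from -3.42 for AP000446.1 to 4.16 for AC025470.2, and most lie within 1 of zero.

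The name of 68 of the 154 gives a sense gene, as in ARHGAP5-AS1. Of these 68, 17 changed (25.0%; 6 higher, 11 lower) with a median log2 fold change of -0.049, and of the 86 others 23 did (26.7%; 7 higher, 16 lower) with a median of -0.30, beside the background of 20.6%. The 17 became 9 without ALDH_High replicate 2, 8 without ALDH_High replicate 3, 8 without ALDH_Low replicate 1, 10 without ALDH_Low replicate 2 and 7 without ALDH_Low replicate 3. In these fits the number over all genes moved as well. The sense gene was in the table for 67, HOXB-AS1 being the exception, and 58 pairs had both genes tested. The antisense RNA had a median of 24.3% of the mean counts of its sense gene over those pairs, and exceeded it in 14. Per length, the median antisense RNA had 10.4 TPM and the median sense gene 20.9 TPM.

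Both strands changed in 4 of the 58 pairs, and in each of those 4 they went the same way. Without ALDH_High replicate 1 there were 5 such pairs. Only 1 such pair was left without ALDH_High replicate 2, and 2 without ALDH_High replicate 3 or any one of the ALDH_Low libraries. The antisense RNA alone passed in 11 pairs, the sense gene alone in 6 and neither in 37. Of the 57 distinct sense genes tested, 10 changed (4 higher, 6 lower), beside the background of 20.6%; this count was 6 without ALDH_High replicate 2. The sign of the change was equal in 40 of 58 pairs. Across pairs, which share libraries and are not independent replicates, the correlation of the log2 fold changes was r = 0.23 over these 58 and r = 0.45 over all 225 named antisense pairs that could be tested.

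**Figure D4:**
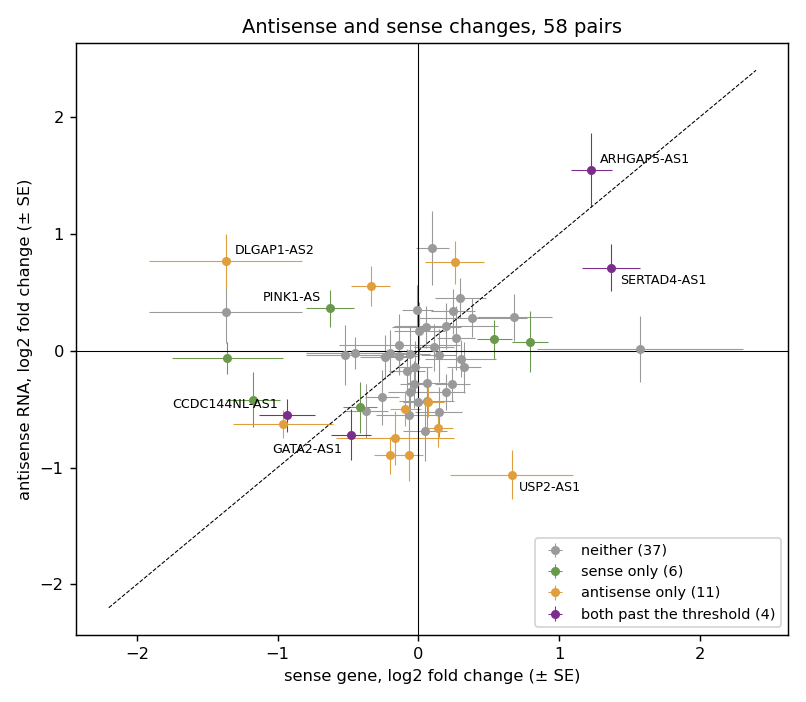
Log2 fold change of the antisense RNA (vertical axis) against that of the sense gene (horizontal axis), ALDH_High over ALDH_Low, with bars of ± SE, for 58 named pairs; colours show which gene passed an adjusted p of 0.05, and the dashed line marks equal change. The 4 pairs with both past the threshold lie in the quadrants of equal sign, and most other points gather around zero.

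ARHGAP5-AS1 overlaps the start of ARHGAP5, with 304 bp of shared exon. The antisense RNA had 8.12, 5.33 and 5.04 CPM in ALDH_High and 2.75, 1.30 and 2.23 CPM in ALDH_Low, and ARHGAP5 had 56.5, 50.7 and 62.4 against 28.5, 22.8 and 21.1 CPM. Neither gene's groups overlapped. The antisense RNA rose by 1.55 on the log2 scale (SE 0.31, edgeR adjusted p = 0.00623) and ARHGAP5 by 1.23 (SE 0.15, edgeR adjusted p = 0.000277). Their ratio did not differ between the groups beyond its error, at 0.32 on the log2 scale (SE 0.33, limma adjusted p = 0.543).

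SERTAD4-AS1 overlaps the start of SERTAD4 and had 8.52, 9.18 and 10.0 CPM in ALDH_High and 5.03, 4.82 and 7.12 CPM in ALDH_Low. SERTAD4 rose more, from 27.7, 36.7 and 42.8 CPM in ALDH_Low to 67.4, 97.9 and 111 CPM in ALDH_High. Both genes separated the groups, with log2 fold changes of 0.71 (SE 0.20, edgeR adjusted p = 0.0333) and 1.37 (SE 0.21, edgeR adjusted p = 0.00112). The ratio of antisense to sense had a difference of -0.64 (SE 0.25, limma adjusted p = 0.132). The call for SERTAD4-AS1 was lost without ALDH_High replicate 2 or 3, or ALDH_Low replicate 1 or 2, with edgeR adjusted p between 0.0806 and 0.115.

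GATA2-AS1 runs across the start of GATA2, a transcription factor of blood and endothelial development. It had 3.08, 3.13 and 2.64 CPM in ALDH_High and 4.28, 5.59 and 4.71 CPM in ALDH_Low, while GATA2 had 21.9, 22.98 and 21.6 against 26.7, 36.5 and 29.4 CPM. The antisense RNA fell by 0.72 (SE 0.22, edgeR adjusted p = 0.0423) and GATA2 by 0.48 (SE 0.14, edgeR adjusted p = 0.0383). The fall of GATA2-AS1 kept its direction but not its call without any one library other than ALDH_High replicate 1, with edgeR adjusted p from 0.0617 to 0.152.

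CCDC144NL-AS1 spans CCDC144NL and was the more abundant member of the pair, at between 331% and 586% of its counts. Its libraries had 31.9, 38.2 and 41.4 CPM in ALDH_High and 49.5, 51.0 and 63.3 CPM in ALDH_Low, and CCDC144NL had 5.44, 8.60 and 8.12 against 13.8, 15.4 and 13.2 CPM. Both fell without overlap, by 0.55 (SE 0.14, edgeR adjusted p = 0.0212) and by 0.93 (SE 0.20, edgeR adjusted p = 0.00744). The first call was lost without ALDH_High replicate 2 (edgeR adjusted p = 0.0661) or ALDH_Low replicate 3 (edgeR adjusted p = 0.0876).

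The difference between the strands was tested as the antisense to sense ratio, with limma over all 225 named pairs. The ratio differed in 19 pairs (8.44% of those tested, and 8 to 12 pairs when any 1 library was left out) but in 0 of the 58 pairs described here, of which 14 had an unadjusted p below 0.05. The 5 with the smallest p all stood at an adjusted p of 0.0622 in limma. They were USP2-AS1 (difference -1.84 on the log2 scale, SE 0.50), PINK1-AS (1.01, SE 0.28), VPS9D1-AS1 (0.90, SE 0.25), EXOC3-AS1 (-0.80, SE 0.23) and PITPNA-AS1 (-0.80, SE 0.23). These 5 passed when both genes were required to have at least 10 counts in every library, and only USP2-AS1 passed without ALDH_Low replicate 1.

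PINK1-AS overlaps the end of PINK1, the kinase that marks damaged mitochondria. Its counts were 28.3, 38.1 and 46.0% of those of PINK1 in ALDH_High and 14.3, 23.01 and 18.6% in ALDH_Low. These ratios did not overlap. PINK1 fell by 0.63 (SE 0.17, edgeR adjusted p = 0.0267), while PINK1-AS had a log2 fold change of 0.36 (SE 0.16, edgeR adjusted p = 0.139). The pair shares 1907 bp of exon.

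EXOC3-AS1 starts 15 bp from EXOC3, a subunit of the vesicle-tethering exocyst, in the divergent direction and without overlap. It had 3.64, 4.13 and 3.74% of the counts of EXOC3 in ALDH_High and 6.25, 6.53 and 7.56% in ALDH_Low. The antisense RNA fell by 0.89 (SE 0.22, edgeR adjusted p = 0.0159) and EXOC3 had -0.07 (edgeR adjusted p = 0.697). In PITPNA-AS1, at the end of the phosphatidylinositol transfer protein gene PITPNA, the ratio was 6.19, 5.42 and 6.30% in ALDH_High and 10.5, 9.14 and 11.9% in ALDH_Low. PITPNA-AS1 fell by 0.67 (SE 0.16, edgeR adjusted p = 0.0146) and PITPNA had 0.14 (edgeR adjusted p = 0.412). Without ALDH_Low replicate 3 the edgeR adjusted p of the 2 antisense RNAs rose to 0.0647 and 0.0543, without ALDH_High replicate 3 that of EXOC3-AS1 rose to 0.0574, and without ALDH_High replicate 2 that of PITPNA-AS1 to 0.0746.

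USP2-AS1 exceeded USP2, a ubiquitin protease gene, in every library, at 267, 212 and 308% of its counts in ALDH_High and 419, 1362 and 1683% in ALDH_Low. The 2 highest ratios rest on a USP2 level of about 0.535 and 0.431 CPM. VPS9D1-AS1 lies inside VPS9D1 and had 77.4, 86.4 and 73.4% of its counts in ALDH_High and 50.4, 45.2 and 33.1% in ALDH_Low. Its own rise of 0.56 (SE 0.17, edgeR adjusted p = 0.0444) lost its call without any one of the 6 libraries, at edgeR adjusted p between 0.0559 and 0.142.

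**Figure D5:**
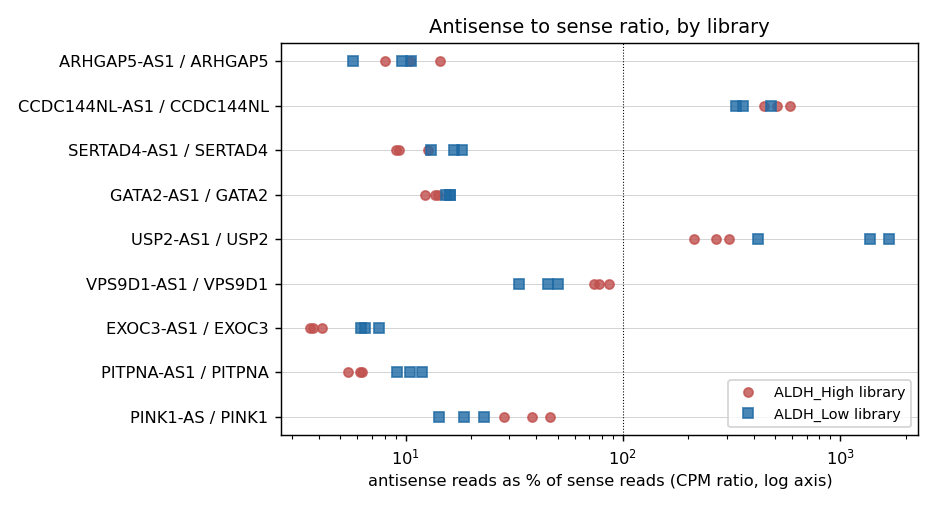
Counts of the antisense RNA as % of those of the sense gene (horizontal log axis, dotted line at 100%) in each ALDH_High (circles) and ALDH_Low (squares) library, for the 4 pairs with both genes past the threshold and the 5 with the smallest p for the ratio. Circles and squares interleave for ARHGAP5-AS1 and CCDC144NL-AS1, lie close without overlap for SERTAD4-AS1 and GATA2-AS1, and separate in the 5 lower lines.

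In the 6 pairs where only the sense gene passed, it moved in either direction. KTN1, the gene of kinectin, a kinesin-binding membrane protein, fell by 1.18 (SE 0.19, edgeR adjusted p = 0.00171) beside -0.42 for KTN1-AS1 (SE 0.24, edgeR adjusted p = 0.256). SH3PXD2A, a podosome scaffold gene, rose by 0.79 (SE 0.13, edgeR adjusted p = 0.00158) beside 0.08 for its antisense RNA (SE 0.26, edgeR adjusted p = 0.879). TMPO, of the nuclear lamina, rose by 0.54 (SE 0.13, edgeR adjusted p = 0.0123) beside 0.10 for TMPO-AS1 (SE 0.17, edgeR adjusted p = 0.744). NUTM2B fell by 1.36 (SE 0.40, edgeR adjusted p = 0.0351), MZF1 by 0.42 (SE 0.12, edgeR adjusted p = 0.0354), and PINK1 as given. These sense genes were named after their values were seen.

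For 9 named pairs the sense gene was too low to be tested: HPN, ATP2C2, FGD5, ASB16, ATP6V1B1, CCDC183, CKMT2, MMP25 and TSPEAR, with at most 28 counts in any library. CKMT2 had no counts at all beside a mean of 209 for CKMT2-AS1, and FGD5 had at most 6 beside a mean of 3527 for FGD5-AS1. Of these 9 antisense RNAs, HPN-AS1 rose, ATP2C2-AS1 fell by 1.02 (SE 0.30, edgeR adjusted p = 0.0364), and the others did not pass. The call for ATP2C2-AS1 held without ALDH_High replicate 2 and was lost without any other single library (edgeR adjusted p between 0.0523 and 0.131).

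Partners were also assigned by position, an assignment added after the data were seen, as the coding gene on the opposite strand that overlaps or starts within 1 kb in GENCODE 44. Where several did, the gene with the longest overlap was taken, and any overlap came before a nearby start. This rule gave a partner for 151 of the 154, and both genes were tested for 127. Both changed in 9 of them, each time in the same direction, the antisense RNA alone in 24, the partner alone in 12 and neither in 82. The 9 became 10 without ALDH_High replicate 1 and 3 without ALDH_High replicate 2, ALDH_High replicate 3 or ALDH_Low replicate 1. They became 2 without ALDH_Low replicate 2 and 4 without ALDH_Low replicate 3. With all libraries the 9 were ARHGAP5-AS1, SERTAD4-AS1 and GATA2-AS1 with their named partners, COSMOC with ELP2, LINC01137 with ZC3H12A, LINC02584 with ANO1, SNHG12 with TRNAU1AP, DLEU2 with TRIM13 and FLJ46906 with NHSL1. TRIM13, on chromosome 13 like DLEU2, rose by 0.44 (SE 0.13, edgeR adjusted p = 0.0392), where the chromosome had a median of 0.33. COSMOC and ELP2 lie on chromosome 18, with a median of -0.33. The part of these medians in the changes of both pairs was not tested. Of the 124 distinct partners tested, 21 changed (16.9% beside the background of 20.6%), 12 higher and 9 lower. That count was 26 without ALDH_High replicate 1, 12 without ALDH_High replicate 2, 13 without ALDH_Low replicate 2 and 11 without ALDH_Low replicate 3. SNHG7 overlaps the end of FAM69B, which rose by 1.76 (SE 0.20, edgeR adjusted p = 0.000192) while SNHG7 itself did not pass.

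By arrangement, 48 antisense RNAs overlapped the start of their partner by position (3 higher, 5 lower) and 46 its end (3 higher, 12 lower). Another 29 lay inside it (5 higher, 3 lower) and 13 spanned it (2 higher, 1 lower). Over all genes 10.8% were higher and 9.83% lower. Each RNA was counted by this partner alone, and its arrangement with another gene could differ. USP2-AS1 and PRR7-AS1, counted at the end of NECTIN1 and GRK6, overlap the start of USP2 and PRR7. CCDC144NL-AS1, counted at the end of USP22, spans CCDC144NL, and UBA6-AS1, counted as spanning TMPRSS11D, is divergent from UBA6. The 12 lower ones at the end of their partner became 5 without ALDH_Low replicate 3. The 8 changed ones at the start became 13 (3 higher, 10 lower) without ALDH_High replicate 1. They became 4 without ALDH_High replicate 2, ALDH_Low replicate 1 or ALDH_Low replicate 2, and 5 without ALDH_High replicate 3. Of those inside, the 5 higher became 3 without any one library other than ALDH_High replicate 2. The 15 divergent ones, with starts within 1 kb and no overlap, had 0 higher and 5 lower, with a median log2 fold change of -0.53. The 5 became 6 without ALDH_High replicate 1 and 2 without ALDH_High replicate 2 or 3. They became 3 without ALDH_Low replicate 1 or 2, and 1, LINC01137, without ALDH_Low replicate 3. With all libraries those 5 were LINC01137, EXOC3-AS1, AC093673.1 beside ZYX, AL118516.1 beside TBC1D22A and RNASEH1-AS1. Of their partners ZC3H12A fell, and EXOC3, ZYX, TBC1D22A and RNASEH1 had log2 fold changes between -0.13 and 0.02 that did not pass. Another 2 had no opposite-strand coding gene within 1 kb, and AC068768.1 was not placed.

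Genes of RNA decay were set beside these values because nuclear decay removes many antisense transcripts. Of 30 such genes (nuclear exosome subunits and cofactors, exonucleases and nonsense-mediated decay factors), all were tested, 2 rose and 0 fell, which is 6.67% beside the background of 20.6%, with a median log2 fold change of 0.032. In edgeR, 3 of the 30 had an unadjusted p below 0.05. SMG5, of nonsense-mediated decay, rose by 0.39 (SE 0.11, edgeR adjusted p = 0.0283), and DIS3, a catalytic subunit of the exosome on chromosome 13, by 0.46 (SE 0.13, edgeR adjusted p = 0.0325). Any link between these levels and those of the antisense RNAs was not tested.

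Total counts per library lay between 26692868 and 37830603. ALDH1A3, the ALDH gene named in the study's title, stood at 973 ± 253 CPM in the ALDH_High libraries and at 389 ± 39.4 CPM in the ALDH_Low ones (SD, n = 3 each), with no overlap. The 8 melanoma marker genes summed to between 629 and 860 CPM in ALDH_High and between 208 and 233 CPM in ALDH_Low, and 2 of them, the pigment cell genes MLANA and TYR, had at most 3 counts in every library. That sum was mostly SOX10, with means of 670 and 194 CPM; S100B rose too (32.2 and 1.68 CPM). MITF, the regulator of pigment genes, fell from 24.7 CPM in ALDH_Low to 13.04 in ALDH_High (edgeR adjusted p = 0.00667), and PMEL did not pass (edgeR adjusted p = 0.747). Markers of white blood cells summed to between 2.84 and 6.90 CPM in ALDH_High and between 1.87 and 2.73 in ALDH_Low, with LYZ higher (edgeR adjusted p = 0.024), CD14 lower (edgeR adjusted p = 0.0142) and 2 of the 5 at no more than 3 counts. Red cell markers summed to 0.318 to 0.749 CPM and 0.1004 to 0.144 CPM, with HBA1 higher (edgeR adjusted p = 0.0237) and HBB at 0. Endothelial markers lay at 0.710 to 1.58 and 0.827 to 2.28 CPM, and epithelial markers at 0.203 to 0.355 and 0.301 to 1.35 CPM. The part of these marker differences in the changes of RMEL3 or any other antisense RNA was not tested. Without chromosomes 13, 18 and 20, whose genes had medians of 0.33, -0.33 and 0.25 on the log2 scale, 36 of 144 antisense RNAs changed (25.0%), 11 higher and 25 lower. The background of 20.6% over all genes keeps these chromosomes and is not matched to that count.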

How the data were processed

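RNA was measured in 6 libraries of sorted A375 cells, 3 per group, with groups and replicate numbers taken from the labels. The authors deposited estimated counts rounded to whole numbers, as read from the values: 133 to 177 genes per library were at 0 counts with a TPM above 0. The TPM values were also deposited by the authors, and the gene lengths behind them are not given in the sources used here. The submitters' processing notes name FastQC 0.11.3, STAR 2.5.1b, HTSeq 0.6.1, DESeq2 and GRCh38, without saying how they were set. HTSeq counts whole reads, so how the deposited counts arose remains uncertain. The annotation release and the strand setting are not given in the sources used here. Rows with an identifier and no gene name held between 0.0213% and 0.0267% of a library and stayed in.

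The counts were filtered (filterByExpr), scaled (TMM) and tested with edgeR 4.0.16 (glmQLFit, glmQLFTest, two-sided) in R 4.3.3, with Benjamini-Hochberg adjustment over 17047 genes and a threshold of 0.05. The SE was derived from the log2 fold change and its F statistic. CPM use TMM-scaled library sizes, and their precision is limited by counting error and by 3 libraries per group. The strand ratio was tested with limma 3.58.1 on log2 CPM ratios (prior count 2). Scripts were tested on simulated data. Positions come from GENCODE 44, matched by identifier for 153 of the 154 rows; 42 have another name there.

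The 154 members and the lists were chosen with earlier results of these data known. Antisense RNAs described by name were the 10 most abundant, the 10 higher and 10 lower with the smallest p among changed ones with groups that did not overlap, the pairs with both genes changed, the 5 pairs with the smallest ratio p, and those at the count threshold. Any other gene was named after its values were seen. Alternatives were other scalings and filters, a replicate block, leaving out each library, DESeq2 1.42.0, and limma on log2(TPM + 1) or log2(TPM + 0.1).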

Additional observations from a re-analysis of the deposited data

How the results depend on the processing

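Of the 40 changed antisense RNAs, 14 (5 higher, 9 lower) stayed past the threshold in all 15 alternative fits, and none reversed. Another 14 passed in at least 1 alternative only. The median log2 fold change of the 154 stayed between -0.24 and -0.13. Leaving out 1 library gave 24 to 42 changed antisense RNAs (7 to 12 higher, 13 to 30 lower), 6 to 13 changed sense genes, 2488 to 4221 changed genes in all, 8 to 12 pairs with unequal change and 0 to 1 among the pairs described; 16 antisense RNAs (6 higher, 10 lower) kept their call in all 6 of these fits. On log2(TPM + 1) without a filter, limma called 2006 genes, 20 antisense RNAs (11 lower) and 3 sense genes. With a mean of at least 50 counts the number was 65 of 269 (50 lower), and with at least 200 it was 19 of 75 (10 lower). Of the 154, 16 passed at an adjusted p below 0.01 (6 higher, 10 lower). At 0.05 with a log2 fold change of 1 or more in size, 16 passed (7 higher, 9 lower). Partners assigned by position gave 21 changed. With at least 10 counts for both genes in every library, 5 of the pairs described had an unequal change. The cause of these differences was not tested, except that fewer genes or libraries enter where a filter is stricter or a library is left out. With 1 library left out, AD000090.1 ranged from -0.59 to 0.16 on the log2 scale, reversing without ALDH_Low replicate 2. AC009779.2, close to zero, reversed to -0.045 with upper-quartile scaling and -0.0041 with the replicate block, and ranged from -0.15 to 0.12 with 1 library left out, being negative without ALDH_High replicate 1 and, at -0.054, without ALDH_Low replicate 3.

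The replicate numbers were not treated as pairs: the correlations of same-numbered libraries' deviations were 0.150, 0.0760 and 0.108, of which 1 is below the limit of 0.1. With the replicate block, 43 antisense RNAs (13 higher, 30 lower), 13 sense genes and 9 of the 225 ratio pairs passed. Upper-quartile scaling moved the median of all genes to -0.062 and gave 42 (11 higher, 31 lower).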
